A study of Mus musculus with 23 samples.

Results

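Taste cells are short-lived and are replaced throughout life, and 10 genes known for taste bud stem cells or renewal signals were followed here: Shh, Ptch1, Smo, Gli1, Lgr5, Lgr6, Sox2, Prox1, Hes1 and Hes6. They were chosen by name, and each was read from the probe carrying its symbol with the highest mean signal over all arrays. All 10 were among the 28208 genes kept of 34791 symbols on the array, and 15 of its 55681 probes besides controls belong to them.

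The data are 23 samples of the circumvallate papilla, a taste papilla near the root of the tongue, each measured on an Agilent array with 1 dye. The papilla was cut out under a microscope after elastase and dispase had freed the tongue epithelium from its connective tissue, and 25 ng of total RNA was labelled per sample. All mice were male C57Bl6/j, given as C57Bl6j in the sample labels. The Lean group (n = 7) ate standard chow containing 3% fat (w/w), and the DIO group (n = 8) ate a high-fat obesogenic diet in which saturated fatty acids were abundant. DIO-R (n = 8) is taken here to be the calorie-restricted DIO mice of the study's design, which received 60% of ad libitum energy, although the labels do not define the name. Neither age nor diet length is given in the sources used here, nor whether each sample is a separate animal, so p-values measure the spread between these samples, which may be in part technical.

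Sonic hedgehog is secreted by post-mitotic precursor cells at the base of the taste bud and by the nerves that supply it. It binds Ptch1, which releases Smo from inhibition and turns on Gli transcription factors in the surrounding progenitors. R-spondin signals through Lgr5 and Lgr6, whose cells give rise to taste cells, while Sox2 is required for taste bud formation, and Notch signals act through Hes genes on the choice of cell fate.

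The first 30 bases of the 60-base probes are shown for 4 genes on which the results turn, because each value is the brightness of that 1 probe. For Lgr5 the second, dim probe is shown too, since it did not follow the first. The headers' mm9 annotation places the Shh probe at chr5:28783983-28784042 on the minus strand. It places the leading Lgr5 probe at chr10:114887403-114887462 and the second at chr10:114900686-114900745, both on the minus strand. The Sox2 probe lies at chr3:34550773-34550832 and the Hes1 probe at chr16:30067820-30067879, both on the plus strand. Exon and untranslated region boundaries of that build were not used here.
Shh: aatttattattgtgtgaactgtactcacag
Lgr5, leading probe: catgtaaatacgtagtgcttgtaaatagat
Lgr5, second probe: acctctagtgcttatatagaaacttgtgtg
Sox2: tggcaatcaaatgtccattgtttataagct
Hes1: ttaaaatatcttcctttggggaagtttatt

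Taste tissue was present in every sample. Of 11 markers of type II taste cells, which detect sweet, umami and bitter, 10 were kept and 9 were well above background on all 23 arrays. All 3 markers of type I cells, the glia-like cells of the bud, and all 8 of type III cells, which respond to sour, were well above background on every array. The samples also held 8 of 8 fibroblast, 9 of 9 skeletal muscle and 6 of 9 von Ebner gland markers among the genes kept. In such bulk samples fewer cells of a type and less RNA per cell cannot be told apart.

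A pair of DIO samples, DIO 1 and DIO 6, stood apart from the other 21 in these genes. DIO 1 was the lowest of all arrays for 8 of the 10 genes, against 8.1% of all genes with a value on every array. DIO 1 and DIO 6 together were the lowest pair for 7 of the 10, against 5.72% of all genes. The spread between samples was largest in DIO for all 10 genes, against 40.1% of all genes. Their mean correlations with the other arrays over all genes, 0.973 and 0.975, lay near the low end of a range that reached 0.985. DIO-R 6 at 0.973 and DIO 2 at 0.975 were as low, so the pair did not stand apart over all genes. Because of the low levels in these genes, their DIO results are given with and without DIO 1 and DIO 6. This setting was chosen after the data were seen. As DIO 1 and DIO 6 were picked for being low in these genes, leaving them out raises the DIO means by construction. In DIO-R against Lean, which holds neither, leaving them out changes the shared estimate of spread and not the difference.

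The taste markers were lowest in the same samples. The mean log2 level of the type II markers was -1.24 in DIO 1 and -0.66 in DIO 6, and between -0.23 and 0.49 in the others. The type I mean was 0.27 in DIO 1 against 1.08 to 1.78 in the others, and the type III mean -0.66 against 0.48 to 0.94. DIO 6 was the second lowest for both, at 0.94 and 0.28. Levels here are log2 signal relative to the 75th percentile of the same array. Basal progenitor markers such as Krt5 and Trp63 did not share this drop in DIO 1, which ranked 9 of 23 upward from the lowest at 4.00, while DIO 6 was the lowest at 3.70. Keratinocyte markers ranked 11 of 23 in DIO 1 and 2 of 23 in DIO 6, and fibroblast markers 9 and 22. The von Ebner gland markers were higher in DIO 1 and DIO 6, at 5.48 and 5.75, than in any other sample, where the highest was 5.37. The part of tissue makeup in the results was not tested.

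**Figure D1:**
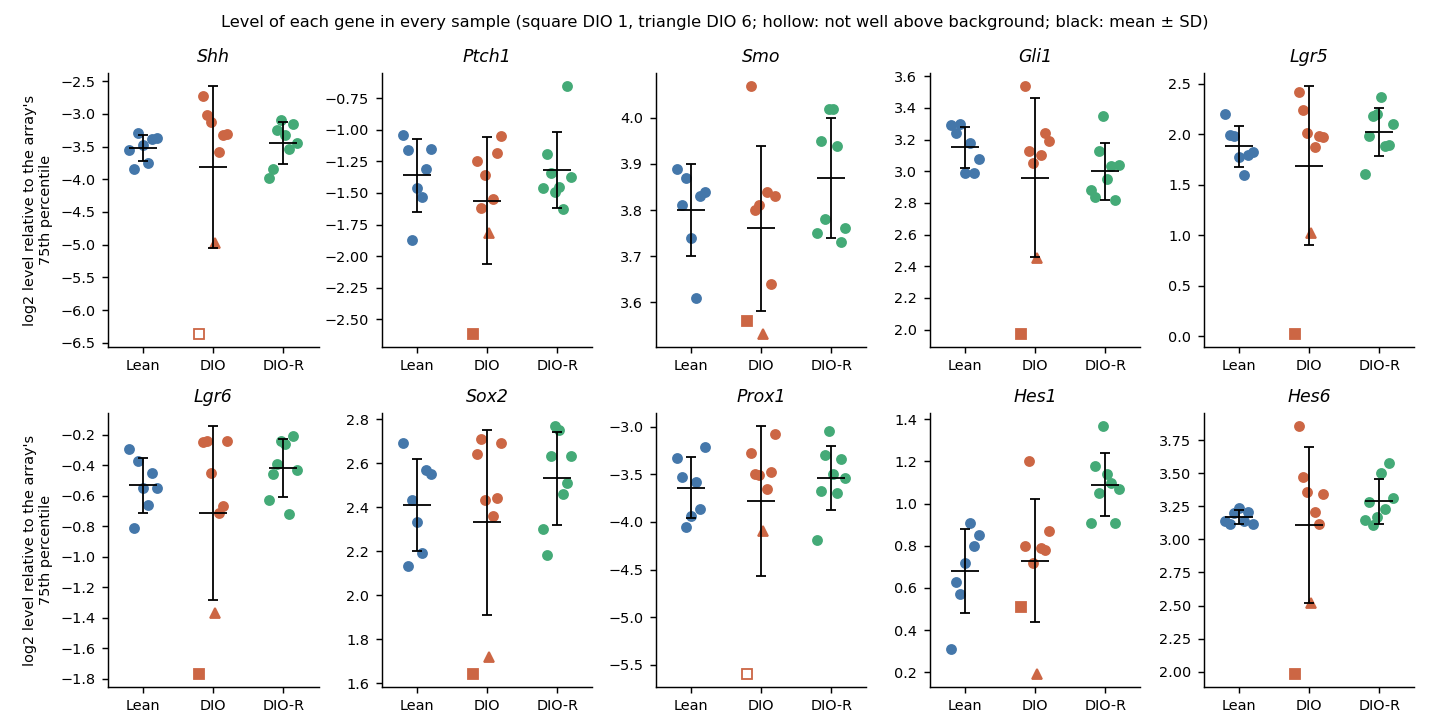
Log2 level of each of the 10 genes in every sample, by group, with the mean and SD of the group in black. DIO 1 (square) is the lowest array for 8 genes, and Shh and Prox1 were not well above background there (hollow). In Hes1 all 8 DIO-R samples lie above all 7 Lean samples.

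Hedgehog ligand and receptors came first. Shh, the ligand, ranged from -3.84 to -3.29 in Lean (median -3.48), from -6.37 to -2.73 in DIO (median -3.32) and from -3.98 to -3.09 in DIO-R (median -3.39). DIO held both the lowest samples, DIO 1 and DIO 6, and the highest, DIO 2, so the groups overlapped. Shh was well above background in 22 of 23 samples, the exception being DIO 1. DIO lay below Lean by 0.28 on average (log2 difference -0.28 ± 0.38 SE, n = 8 and 7, limma adjusted p = 0.883). Leaving out DIO 1 and DIO 6, this turned to 0.34 ± 0.15 higher in DIO (limma adjusted p = 0.347). The SD of Shh in DIO was 1.24 with all 8 samples and 0.30 with the 6 others, against 0.20 in Lean and 0.32 in DIO-R. As Shh in DIO 1 was not well above background, the size of its drop, and with it the DIO mean and the SD of 1.24, is uncertain.

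DIO-R differed from DIO by 0.35 ± 0.37 in Shh (limma adjusted p = 0.738) and from Lean by 0.07 ± 0.38 (limma adjusted p = 0.968). The 95% interval of the last ran from -0.72 to 0.86. With those samples left out the difference from DIO was -0.27 ± 0.15 (limma adjusted p = 0.733), opposite in sign.

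Ptch1, the Shh receptor and itself a hedgehog target, ranged from -1.87 to -1.04 in Lean, -2.62 to -1.05 in DIO and -1.63 to -0.65 in DIO-R, with medians of -1.31, -1.45 and -1.41. The groups overlapped, with DIO 1 lowest and DIO-R 8 highest. The log2 differences were -0.20 ± 0.19 for DIO against Lean, 0.23 ± 0.18 for DIO-R against DIO and 0.04 ± 0.19 for DIO-R against Lean, with limma adjusted p values of 0.829, 0.659 and 0.968. A second Ptch1 probe followed the first across arrays (r = 0.84) and gave -0.24, 0.22 and -0.02. With DIO 1 and DIO 6 left out the differences of the leading probe involving DIO were 0.02 ± 0.15 and 0.01 ± 0.15.

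Smo, the transducer that Ptch1 holds in check, was the least variable of the hedgehog genes here. It spanned 3.61 to 3.89 in Lean (median 3.83), 3.53 to 4.07 in DIO (median 3.81) and 3.73 to 4.02 in DIO-R (median 3.86). DIO again held both the lowest sample and the highest. The 95% intervals kept its log2 differences between -0.20 and 0.26 in the 3 comparisons, with limma adjusted p values of 0.931, 0.616 and 0.803. Its differences involving DIO were 0.04 ± 0.07 each when DIO 1 and DIO 6 were left out. A second Smo probe, well above background on all arrays, did not follow the first (r = -0.26) and gave 0.10, -0.04 and 0.05 where the first gave -0.04, 0.11 and 0.07.

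Gli1, a transcription factor often read as a gauge of hedgehog response, had its lowest group median in DIO-R. Its range was 2.99 to 3.30 in Lean, 1.97 to 3.54 in DIO and 2.82 to 3.35 in DIO-R, with medians of 3.18, 3.11 and 2.99. Only 1 of 8 DIO-R samples lay above the Lean mean, though the ranges overlapped. Gli1 was the 1 gene of the 10 with a lower mean in DIO-R than in Lean, by a log2 difference of -0.15 ± 0.16 (limma adjusted p = 0.804). The other differences were -0.19 ± 0.16 for DIO against Lean and 0.04 ± 0.16 for DIO-R against DIO (limma adjusted p = 0.797 and 0.925). The second of these became -0.20 ± 0.09 without DIO 1 and DIO 6 (limma adjusted p = 0.709). The second Gli1 probe was well above background on 2 arrays.

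The R-spondin receptors followed. Lgr5 marks long-lived progenitors at the base of the papilla and ranged from 1.60 to 2.20 in Lean (median 1.82), 0.02 to 2.42 in DIO (median 1.97) and 1.61 to 2.37 in DIO-R (median 2.04). DIO 1 at 0.02 and DIO 6 at 1.02 lay below every other sample, and the remaining samples of all groups overlapped. Of the 8 DIO-R samples, 7 exceeded the mean of DIO and 7 that of Lean. The log2 differences were -0.19 ± 0.25 for DIO against Lean, 0.33 ± 0.24 for DIO-R against DIO and 0.15 ± 0.25 for DIO-R against Lean (limma adjusted p = 0.882, 0.629 and 0.876). The first turned to 0.20 ± 0.12 and the second to -0.06 ± 0.12 without DIO 1 and DIO 6. The second Lgr5 probe was well above background on 0 arrays and its correlation with the leading probe was 0.12, so the Lgr5 values rest on 1 probe.

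Lgr6, a relative of Lgr5 found in progenitors of taste and other epithelia, spanned -0.81 to -0.29 in Lean, -1.77 to -0.24 in DIO and -0.72 to -0.21 in DIO-R, with medians of -0.55, -0.56 and -0.41. DIO 1 and DIO 6 were again the lowest pair and the other samples overlapped. The differences were -0.19 ± 0.19, 0.30 ± 0.18 and 0.11 ± 0.19 in the same order (limma adjusted p = 0.836, 0.574 and 0.874). When DIO 1 and DIO 6 were left out the first was 0.10 ± 0.11 and the second 0.01 ± 0.11. A second Lgr6 probe had a correlation of 0.52 with the first and gave differences of -0.03, 0 and -0.03.

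Sox2, the transcription factor of taste progenitors, ranged from 2.13 to 2.69 in Lean, 1.64 to 2.71 in DIO and 2.18 to 2.77 in DIO-R, with medians of 2.43, 2.43 and 2.57. DIO 1 and DIO 6 lay together at 1.64 and 1.72, below all others. The log2 differences were -0.08 ± 0.15, 0.20 ± 0.15 and 0.12 ± 0.15 (limma adjusted p = 0.916, 0.632 and 0.834), and without DIO 1 and DIO 6 the first became 0.13 ± 0.11 and the second -0.01 ± 0.11.

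Prox1, a homeobox factor present in taste bud cells, ranged from -4.05 to -3.21 in Lean, -5.60 to -3.08 in DIO and -4.19 to -3.05 in DIO-R, with medians of -3.58, -3.51 and -3.52. It was not well above background in DIO 1, and the ranges of the other samples overlapped. Its differences were -0.13 ± 0.27, 0.24 ± 0.26 and 0.11 ± 0.27 (limma adjusted p = 0.926, 0.746 and 0.921). The first turned to 0.23 ± 0.16 and the second to -0.12 ± 0.16 without DIO 1 and DIO 6.

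Hes1, a repressor induced by Notch, had the smallest p of the 10 genes in both comparisons with DIO-R, though not in DIO against Lean. It ranged from 0.31 to 0.91 in Lean (median 0.72), from 0.19 to 1.20 in DIO (median 0.79) and from 0.91 to 1.37 in DIO-R (median 1.09). All 8 DIO-R samples lay above all 7 Lean samples, although the gap was narrow, with Lean 7 at 0.907 and DIO-R 8 at 0.911. Between DIO-R and DIO, 1 DIO sample, DIO 3 at 1.20, reached into the DIO-R range. Groups that did not overlap were found for 1 of the 10 genes in DIO-R against Lean, where 0.305% of all genes did so, and for 0 of 10 in the other comparisons (0.121% for DIO against Lean and 0.0887% for DIO-R against DIO).

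Mean Hes1 was 1.33 times as high in DIO-R as in Lean (log2 difference 0.41 ± 0.12 SE, n = 8 and 7, limma adjusted p = 0.211). Against DIO it was 1.28 times as high (0.36 ± 0.11, n = 8 and 8, limma adjusted p = 0.425). DIO and Lean differed by 0.05 ± 0.12 (limma adjusted p = 0.938). None of these passed the adjusted threshold of 0.05. Within the 3 slides, each of which holds every group, DIO-R exceeded Lean by 0.38, 0.38 and 0.53 and exceeded DIO by 0.49, 0.41 and 0.19. Without DIO 1 and DIO 6 the DIO-R difference from Lean was 0.41 ± 0.09 (limma adjusted p = 0.0808) and from DIO 0.23 ± 0.10 (limma adjusted p = 0.705).

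Hes6, which opposes Hes1 and accompanies the differentiation of precursor cells, showed the tightest Lean group. It ranged from 3.12 to 3.24 there, from 1.98 to 3.86 in DIO and from 3.11 to 3.58 in DIO-R, with medians of 3.14, 3.27 and 3.26. The SD was 0.05 in Lean, 0.59 in DIO (0.26 without DIO 1 and DIO 6) and 0.17 in DIO-R. DIO samples lay on both sides of Lean, 4 of 8 above every Lean sample and DIO 1 and DIO 6 below all. The log2 differences were -0.06 ± 0.18, 0.18 ± 0.18 and 0.12 ± 0.18 (limma adjusted p = 0.954, 0.716 and 0.858). When these samples were left out Hes6 was 0.22 ± 0.10 higher in DIO than in Lean (limma adjusted p = 0.351) and its DIO-R against DIO difference was -0.10 ± 0.10.

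**Figure D2:**
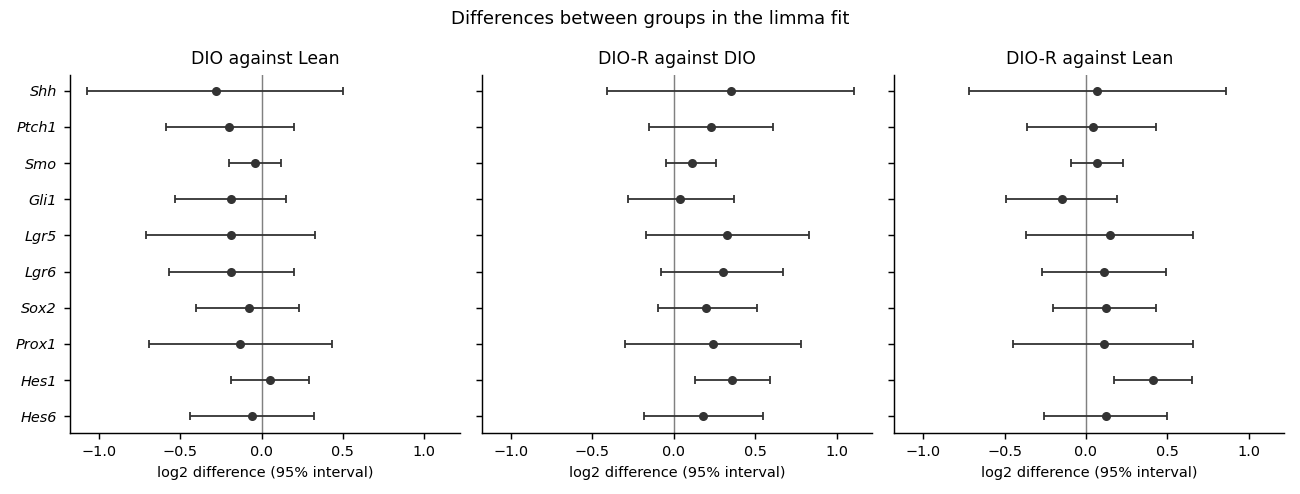
Log2 difference of each of the 10 genes in the 3 comparisons, with the 95% interval of the limma fit of 23 arrays. The intervals of Hes1 for DIO-R against DIO and against Lean, 0.13 to 0.59 and 0.17 to 0.65, lie above 0, and every other interval includes 0.

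Counted over the 10 genes, none passed an adjusted p of 0.05 in limma in any comparison. The background was 0.00355% of genes for DIO against Lean, 0.0603% for DIO-R against DIO and 0.128% for DIO-R against Lean, so a count of 0 in 10 is near what the whole array gave. At an unadjusted limma p under 0.05 there were 0 of 10 in DIO against Lean (8.96% of all genes), 1 of 10 in DIO-R against DIO (9.73%) and 1 of 10 in DIO-R against Lean (8.94%), the 1 being Hes1 both times. These shares are also near the background. Without DIO 1 and DIO 6 the same counts were 2 (Shh and Hes6), 2 (Gli1 and Hes1) and 1 (Hes1) of 10, where 13.1%, 6.93% and 10.8% of all genes were counted. As these samples were picked for low levels in these genes, the counts in the comparisons with DIO are not a test of them.

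Directions of the means are given as a description. DIO was below Lean in 9 of 10 genes (median log2 difference -0.16, against -0.04 over all genes). DIO-R was above DIO in 10 of 10 (median 0.23, against 0.01) and above Lean in 9 of 10 (median 0.11, against -0.02). The first 2 comparisons share the DIO samples and the genes vary together, so these are not 10 separate observations. Without DIO 1 and DIO 6, DIO lay above Lean in 10 of 10 (median 0.15), and DIO-R above DIO in 4 of 10 (median -0.03), while DIO-R against Lean stayed at 9 of 10 (median 0.11). The direction of the shift in the first 2 was fixed by leaving out DIO 1 and DIO 6, so it is not separate evidence. On slide 3, which holds neither of these samples, DIO lay above Lean in 7 of 10 and DIO-R below DIO in 9 of 10. That slide holds only 2 DIO, 2 Lean and 3 DIO-R samples. DIO 2, which lies on it, was the highest of all arrays for Shh, Smo, Gli1, Lgr5 and Hes6. On slides 1 and 2 DIO lay below Lean in 10 and 9 of 10, and DIO-R above DIO in 10 of 10 on each. DIO-R lay above Lean in 9 of 10 on each of slides 1 and 2 but in 3 of 10 on slide 3, where the median was -0.11. The direction in DIO against Lean also moved with the processing: 4 genes were higher and 5 lower in the authors' value table (median -0.02), 6 and 3 with a replicate block (median 0.03), and 2 and 7 with array weights (median -0.04), the rest being 0 after rounding.

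Among markers of other cells, Aif1, a macrophage gene, was the 1 gene that passed an adjusted p in limma, and that in DIO against Lean (0.95 ± 0.13, adjusted p = 0.00774). The other values are means that did not pass. Over all genes, 41.1%, 51.6% and 44.5% were higher in DIO against Lean, DIO-R against DIO and DIO-R against Lean. In DIO against Lean 8.96% of all genes had an unadjusted limma p under 0.05. In DIO against Lean, 10 of 10 type II markers were lower (median -0.30, 1 at an unadjusted limma p under 0.05) and 11 of 11 keratinocyte markers were lower (median -0.50, 6 at that p). Of type I markers 2 of 3 were higher (median 0.01) and of type III markers 7 of 8 were lower (median -0.16), none at that p. All 8 fibroblast markers were higher (median 0.38, 3 at that p), as were all 4 erythrocyte markers (median 1.02, 3 at that p) and all 6 macrophage markers (median 0.24, 2 at that p). In DIO-R against DIO the type I median was 0.13 (3 of 3 higher), the type III median 0.26 (5 of 8 higher) and the type II median 0.28 (9 of 10 higher). The keratinocyte median was 0.44 (11 of 11 higher) and the erythrocyte median -1.05 (4 of 4 lower). Lower means in DIO-R than in DIO were also found for 6 of 6 macrophage (median -0.40), 9 of 9 muscle (-0.56), 6 of 6 von Ebner gland (-0.71) and 5 of 5 adipocyte markers (-0.82). In DIO-R against Lean, where Hes1 did not overlap, the medians were -0.98 for von Ebner gland (6 of 6 lower), -0.72 for adipocytes (5 of 5), -0.53 for muscle (8 of 9), -0.11 for keratinocytes (9 of 11), 0.19 for fibroblasts (6 of 8 higher) and -0.03 for type II cells (6 of 10 lower). The part of these cells in the results was not tested. By group the mean level of the type II markers ran from 0.04 to 0.34 in Lean, -1.24 to 0.49 in DIO and -0.23 to 0.39 in DIO-R. Among the DIO samples besides DIO 1 and DIO 6 it ran from -0.06 to 0.49. The type III mean ran from 0.48 to 0.94 in those DIO samples and from 0.54 to 0.71 in Lean. The marker differences above include DIO 1 and DIO 6 and are not given without them.

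Across the 23 arrays 9 of the 10 genes rose and fell with the type II markers. Such correlations were run only with the type II, keratinocyte and fibroblast markers. Whether the genes went with type II cells more than with other taste cells was not tested. Lgr6 (Pearson r = 0.95, Spearman rho = 0.87) and Sox2 (r = 0.88, rho = 0.81) were the closest by rank, each with a permutation p of 1e-05 for both measures, the smallest that 100000 resamples can give, and an adjusted p of 7.5e-05 for r and 0.00015 for rho over 30 relations. Without DIO 1 and DIO 6, the arrays farthest from the median, Lgr6 kept r = 0.80 (adjusted permutation p = 0.0003) and Sox2 r = 0.69 (adjusted permutation p = 0.0071). Shh went from r = 0.95 (rho = 0.73) to 0.74, and Lgr5 from 0.93 (rho = 0.66) to 0.64. Gli1 went from 0.81 (rho = 0.30) to 0.23 and Ptch1 from 0.74 (rho = 0.41) to 0.27, so much of their r over 23 arrays rests on those arrays. On slide 3, which holds neither of them, r was 0.49 for Gli1 and 0.46 for Ptch1. Hes1 was the exception, with r = 0.47 (adjusted permutation p = 0.0748), and 0.10 without DIO 1 and DIO 6. Within slides its r was 0.64, 0.82 and -0.35.

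Counted at an adjusted permutation p under 0.05, 9 of 10 genes went with the type II markers by r, 6 of 10 by rho, and 6 of 10 by r without the 2 arrays. The median r within the slides was 0.94, 0.90 and 0.76. With the keratinocyte markers the count was 0 of 10 by r and by rho (median r 0.16, highest 0.35). With DIO 2 and Lean 3, the arrays farthest from the keratinocyte median, left out, 1 of 10 passed (Smo, r = 0.59, adjusted permutation p = 0.0253) and the median r was 0.31, and the slide medians were 0.28, 0.62 and -0.07. With the fibroblast markers the count was 0 of 10 by r and by rho (median r -0.12, lowest -0.35), and 0 of 10 without the 2 arrays farthest from their median (median r -0.17). The slide medians were -0.17, -0.44 and 0.12.

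**Figure D3:**
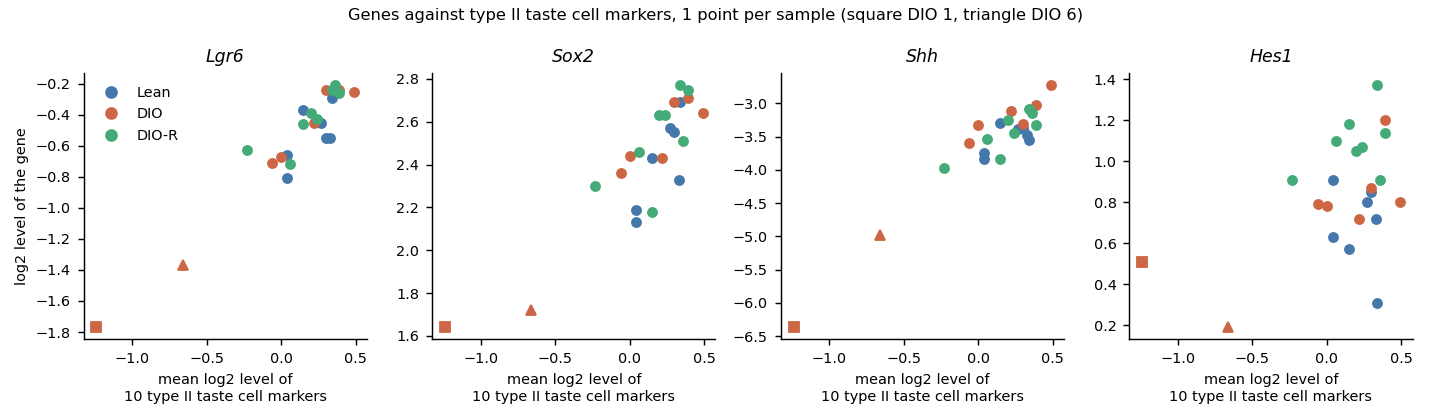
Log2 level of Lgr6, Sox2, Shh and Hes1 against the mean log2 level of 10 type II taste cell markers, 1 point per sample, coloured by group. DIO 1 (square, -1.24) and DIO 6 (triangle, -0.66) lie far to the left; among the other 21 samples r was 0.80 for Lgr6 and 0.10 for Hes1.

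The 10 genes also varied with one another. Of 45 pairs, 41 had an adjusted permutation p under 0.05 by Pearson r and 19 by Spearman rho, and r was positive in all 45 (0.20 to 0.94, median 0.71). With the 2 arrays farthest from the median of the first gene left out, 15 of 45 pairs passed (r from -0.28 to 0.77, median 0.42). The median r within slides was 0.86, 0.85 and 0.49, and in slide 3 r was positive in 35 of 45 pairs.

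The closest pair by r was Shh with Lgr5, with r = 0.94 and rho = 0.66, and r = 0.64 without DIO 1 and DIO 6. Their permutation p values adjusted over the 45 pairs were 5.63e-05, 0.00343 and 0.013. Shh and Prox1 were not well above background in DIO 1. The size of their r over 23 arrays, here and with the type II markers, is therefore uncertain. By rho the closest pair was Lgr6 with Sox2 (0.81). Lgr6 with Sox2 had the highest r once 2 arrays were left out, 0.77, from 0.91 with all. Ligand and response gene were less tightly tied: Shh with Gli1 went from 0.87 (rho = 0.51) to 0.45 (adjusted permutation p = 0.0902), and Shh with Ptch1 from 0.70 (rho = 0.24) to 0.05. Hes1 had the lowest median r to the other 9, 0.48. Once 2 arrays were left out, 0 of 9 pairs passed for Hes1 and for Gli1, and 1 of 9 for Ptch1. The r of Hes1 with Gli1 was 0.28, and -0.28 without DIO 1 and DIO 6.

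**Figure D4:**
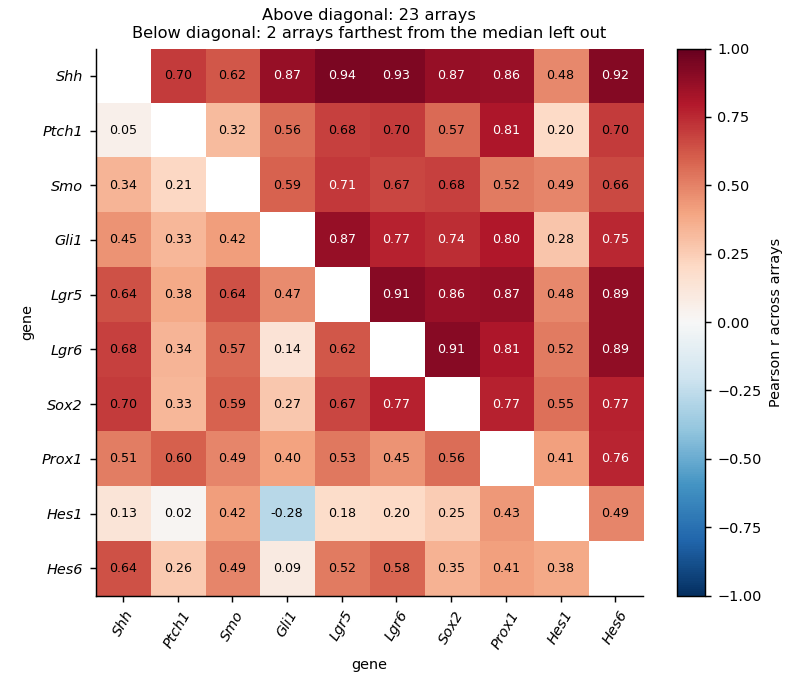
Pearson r between each pair of the 10 genes across arrays: above the diagonal with all 23 arrays, below it without the 2 arrays farthest from the median of the pair's first gene. Values range from 0.20 to 0.94 above and from -0.28 to 0.77 below; the Hes1 row and column are the palest.

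The genes with the pattern most like Shh over 23 arrays were Dll3, Cxcl14, Cib3, 1810046K07Rik and Gnb3, with r from 0.98 to 0.97 and from 0.89 to 0.82 without DIO 1 and DIO 6. Those most like Lgr5 were Cxcl14, Otop1, Dner, Tcerg1l and Serpina1a (r 0.97 to 0.96, and 0.82 to 0.76 without the pair). Those most like Sox2 were Adora2b, Cdc25b, Mctp2, Srgap1 and Tas2r138 (r 0.94 to 0.93, and 0.86 to 0.80). Over all 28194 other genes the median r was -0.03 with Shh, -0.02 with Lgr5 and 0.03 with Sox2, and the 95th percentile 0.61, 0.65 and 0.72. Dll3 belongs to the family of Notch ligands, and Otop1 is the proton channel of sour taste.

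The other genes of the pathways gave 0 calls at an adjusted limma p under 0.05 in any comparison. The unadjusted counts below stand beside 8.96%, 9.73% and 8.94% of all genes in DIO against Lean, DIO-R against DIO and DIO-R against Lean. The lists were chosen with earlier results of these data known, so their shares are a description and not a test. Of 17 further hedgehog genes, 1 was higher and 0 lower at an unadjusted limma p under 0.05 in DIO against Lean, 0 and 1 in DIO-R against DIO, and 1 and 1 in DIO-R against Lean. The smallest p values belonged to Evc, a ciliary partner of Smo (0.16 ± 0.07 in DIO against Lean), Gpr161, a ciliary inhibitor of the pathway (-0.53 ± 0.25 in DIO-R against DIO), and Gli3, its main repressor (0.23 ± 0.10 in DIO-R against Lean). The medians of the list were 0.05, -0.03 and 0.02.

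Of 35 R-spondin and Wnt genes kept, 0 were higher and 1 lower in DIO against Lean at that unadjusted p, 5 and 0 in DIO-R against DIO (14.3% of the list against 9.73% of all genes), and 1 and 1 in DIO-R against Lean. Porcn, the enzyme that attaches the lipid Wnt proteins need for secretion, was lower in DIO than in Lean by a log2 difference of -0.37 ± 0.16 (limma adjusted p = 0.489) and higher in DIO-R than in DIO by 0.37 ± 0.15 (limma adjusted p = 0.492). These comparisons share the DIO samples. Fzd3, a Wnt receptor, differed by -0.29 ± 0.12 in DIO-R against Lean (limma adjusted p = 0.46).

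Of 23 Notch genes kept, the counts were 1 higher and 0 lower, 3 and 0, and 3 and 0. The genes with the smallest p were Dtx1, a ubiquitin ligase that binds Notch (0.58 ± 0.18 in DIO against Lean, limma adjusted p = 0.321), the ligand Jag1 (0.31 ± 0.10 in DIO-R against DIO, limma adjusted p = 0.436) and the receptor Notch1 (0.40 ± 0.16 in DIO-R against Lean, limma adjusted p = 0.439). Every one of the 8 DIO-R samples exceeded the mean of DIO for Jag1 and that of Lean for Notch1, and the groups overlapped for both. In DIO-R against Lean 13.0% of the Notch genes had an unadjusted limma p under 0.05, against 8.94% of all genes. The mean level of the list was lowest in DIO 1 (-0.07) and second lowest in DIO 6 (0.11), and 0.13 to 0.48 in the others.

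Of 10 basal progenitor genes, 0 had such a p in DIO against Lean, 1 in DIO-R against DIO (10% against 9.73% of all genes) and 3 in DIO-R against Lean (30% against 8.94%), all higher in DIO-R. Cd44, an adhesion receptor, differed by 0.44 ± 0.14 in the last (limma adjusted p = 0.276), and Itgb4, an integrin that anchors basal cells, by 0.22 ± 0.10 in DIO-R against DIO (limma adjusted p = 0.499). All 10 had a higher mean in DIO-R than in DIO, with a median of 0.15, where 51.6% of all genes were higher. The 10 genes of the taste bud lineage gave 0 such p values in each comparison, with medians of -0.07, 0.15 and 0.04. All 10 of this lineage were likewise higher in DIO-R than in DIO. Their mean level was lowest in DIO 1 (1.64) and second lowest in DIO 6 (1.88), and 2.06 to 2.61 in the others. The group medians of that mean were 2.23 in Lean, 2.23 in DIO and 2.33 in DIO-R. Differences of the pathway lists are given with all samples only. The lineage keratins Krt18 and Krt19 had the smallest p (-0.15 ± 0.12 for Krt18 in DIO against Lean, 0.28 ± 0.18 and 0.21 ± 0.18 for Krt19 in DIO-R against DIO and against Lean).

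Genes of cell division were the remaining list. All 13 kept had a higher mean in DIO than in Lean (median 0.39), 11 of them at an unadjusted limma p under 0.05 (84.6% against 8.96% of all genes) and none at an adjusted one. Rrm2, part of ribonucleotide reductase, which supplies the building blocks of DNA, had the smallest p, with DIO above Lean by 0.63 ± 0.12 (limma adjusted p = 0.0888) and all 8 DIO samples above all 7 Lean samples, as in 0.121% of all genes. In DIO-R against Lean 12 of 13 were higher (median 0.30, 7 at that unadjusted p, which is 53.8% against 8.94% of all genes), led by Ccnd1, a cyclin that starts the cycle (0.38 ± 0.09, limma adjusted p = 0.15). In DIO-R against DIO 9 of 13 were lower (median -0.16), and Ccnb1, the mitotic cyclin, gave -0.36 ± 0.14 (limma adjusted p = 0.486). The mean level of the list ranked 18 of 23 in DIO 1 and 4 of 23 in DIO 6. This list too was chosen with earlier results known. How far its genes vary together was not tested, so the counts are not taken as separate observations.

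**Figure D5:**
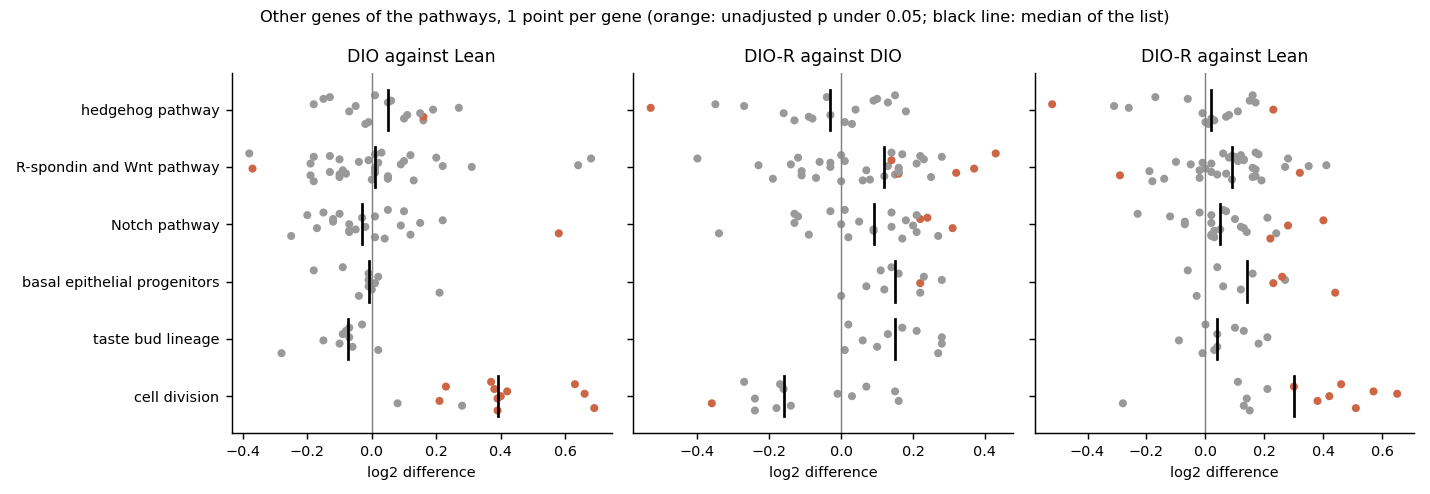
Log2 differences of the other genes of each pathway list in the 3 comparisons, 1 point per gene, in orange where the unadjusted limma p is under 0.05, with the median of the list in black. All 13 cell division genes lie right of 0 in DIO against Lean (median 0.39) and 12 of 13 in DIO-R against Lean (median 0.30), while the hedgehog medians lie between -0.03 and 0.05.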

How the data were processed

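The deposited scanner files hold spot intensity from Agilent Feature Extraction 10.10.1.1, per the submitters' processing notes, which also name limma; per the file headers, background was subtracted within each array. Flags for spots well above background and for outliers are the scanner's, per the file headers. Values here are log2 intensity minus the 75th percentile of the array. Outlier spots were left out, spots of 1 probe averaged, and genes were kept where the scanner called the leading probe well above background on 7 or more of the 23 arrays. The log2 values that the authors deposited as a processed table rank probes like the scanner's median intensity (lowest Spearman 0.999992), with array medians of 7.63 to 7.64 and the same direction; the exact normalization is not given in the sources used here, and these values served as an alternative. Symbols come from the array's design, updated through RefSeq GRCm38.p6.

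Groups were compared in limma 3.58.1 (R 4.3.3, with version 1.17.8 of the package data.table), with a mean per group over 23 arrays, two-sided, and Benjamini-Hochberg adjustment over all 28208 genes. Correlations used permutation tests with 100000 resamples in Python 3.11.15 with numpy 2.4.6 and scipy 1.17.1, and plots matplotlib 3.10.9. The fit was tested on simulated data. The arrays lie on 3 slides, which match the scans. The 10 genes, the pathway lists and the marker lists were chosen with earlier results of these data known. From each pathway list the text names every called gene and the gene with the smallest p per comparison, and for Shh, Lgr5 and Sox2 the 5 most correlated genes. Arrays carry no read depth; their number limits the precision.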

Additional observations from a re-analysis of the deposited data

Results flagged for a closer look

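Of 30 groups of values (10 genes in 3 groups), 2 held a sample far from the rest of its group by Dixon's gap test, which chance does in about 1 of 20 groups. Prox1 in DIO 1 was -5.60, and the nearest DIO sample was at -4.10. The probe was not well above background in DIO 1, so the size of this gap is not a measured one. Ptch1 in DIO-R 8 was -0.65, and the nearest DIO-R sample was at -1.19.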

How the results depend on the processing

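Of 1074 values of the 10 genes recomputed under the alternatives, 1007 kept their direction and side of the threshold, 67 changed sign and none passed an adjusted p of 0.05 in limma. Hes1 in DIO-R against Lean lay between 0.35 and 0.45 under all of them (limma adjusted p 0.0584 to 0.476). In DIO-R against DIO it lay between 0.23 and 0.43 (limma adjusted p 0.16 to 0.705). Some alternatives could not change a difference of group means, only its spread and p. These were leaving out a sample of the group not compared and fitting only the groups compared. Leaving out DIO 1 and DIO 6 did likewise in DIO-R against Lean. Their values are among the 1007, so that count overstates how stable the directions were.

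A pair of settings was chosen after seeing the data. The first leaves out DIO 1 and DIO 6, which raises the DIO means of these genes by construction. Without DIO 1 and DIO 6, DIO against Lean gave Shh 0.34, Prox1 0.23, Hes6 0.22, Lgr5 0.20, Sox2 0.13, Lgr6 0.10, Gli1 0.06, Smo 0.04 and Ptch1 0.02, and DIO-R against DIO gave Shh -0.27, Gli1 -0.20, Prox1 -0.12, Hes6 -0.10, Lgr5 -0.06 and Sox2 -0.01. With the type II marker mean as a covariate, DIO against Lean gave Shh 0.26, Prox1 0.21, Hes6 0.19, Lgr5 0.16, Sox2 0.11, Lgr6 0.08, Smo 0.03, and 0 (rounded, on the positive side) for Ptch1 and Gli1; DIO-R against DIO gave Shh -0.15, Gli1 -0.14, Prox1 -0.08 and Hes6 -0.05.

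Among the planned settings, Smo in DIO against Lean turned to 0.03 with quantile normalization, 0.01 with normexp, 0.07 in the authors' table and 0.03 as the mean of its probes. In the authors' table Shh was 0.01 and Prox1 0.02 in DIO against Lean, and Gli1 0 in DIO-R against DIO. Gli1 in DIO-R against DIO was -0.04 as the mean of its probes and -0.04 with array weights, which also gave Hes6 0.02 in DIO against Lean and Ptch1 -0.03 in DIO-R against Lean. Shh in DIO-R against Lean was -0.01 with normexp and -0.01 with slide as a block.

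The labels do not say whether replicate numbers shared between groups pair the samples. Deviations of same-numbered samples from their group means correlated from -0.24 to 0.32, -0.21 to 0.16 and -0.37 to 0.33 in the 3 comparisons. With so few pairs these values cannot decide it. The replicate block turned DIO against Lean to 0.13 for Prox1, 0.06 for Lgr5, 0.05 for Shh, 0.03 for Sox2, 0.03 for Hes6 and 0 for Smo, DIO-R against DIO to -0.11 for Gli1, -0.04 for Prox1 and 0 for Shh, and DIO-R against Lean to -0.03 for Ptch1. The replicate block called 0, 4 and 9 genes in the 3 comparisons, against 1, 17 and 36.

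Leaving out 1 sample at a time gave these ranges in DIO against Lean: Shh -0.44 to 0.08, Lgr5 -0.29 to 0.05, Sox2 -0.14 to 0.01, Prox1 -0.23 to 0.13, Hes6 -0.17 to 0.10 and Hes1 -0.02 to 0.12. In DIO-R against DIO they were Shh -0.01 to 0.51, Gli1 -0.10 to 0.13 and Prox1 -0.02 to 0.34, and in DIO-R against Lean Ptch1 -0.06 to 0.09. For Shh, Lgr5, Sox2, Prox1 and Hes6 in DIO against Lean the values above 0 came without DIO 1 or DIO 6, and Hes1 was below 0 without Lean 3 or DIO 3. Shh, Prox1 and Gli1 in DIO-R against DIO were below 0 without DIO 1, and Gli1 also without DIO 6 or DIO-R 5. Ptch1 in DIO-R against Lean was below 0 without Lean 5 or DIO-R 8.

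The count of genes called in DIO against Lean was 2 with normexp, 9 in the authors' table, 3 with slide as a block, 3 with trend and robust eBayes, 61 with array weights, 27 without DIO 1 and DIO 6, 38 with the covariate and 1 to 37 leaving out 1 sample (37 without DIO 6, 22 without Lean 7, 8 without DIO-R 6). In DIO-R against DIO it was 27 with quantile normalization, 26 in the authors' table, 38 with array weights, 10 without DIO 1 and DIO 6 and 11 to 24 leaving out 1 sample. In DIO-R against Lean it was 110 with array weights, 58 without DIO 1 and DIO 6, 104 with the covariate and 26 to 65 leaving out 1 sample (65 without Lean 3). Without DIO 1 and DIO 6 the pairs of genes passing numbered 10 of 45 against 41, and relations with marker lists 5 of 30 against 9; the adjustment then ran over values that all leave out these samples, while the 15 pairs and 6 type II relations of the report come from adjustments in which the 2 arrays left out differ with the measure. The cause was not tested.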
